A study of Mus musculus with 8 samples.

Results

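The translation initiation and elongation factors are the genes whose names begin with Eif1 to Eif6, Eef1 or Eef2 in the count tables, leaving out names marked as pseudogenes and names ending in Rik. The rule found 62 genes among 19879 named genes, and 56 of the 62 had a row in all 8 tables. All 62 carried at least 1 transcript, and 58 passed the filter on low counts and were tested. Eif2ak3, Eif2b3, Eif2d and Eif5a2 did not pass the filter. Eef1a2, the second gene for the elongation factor that brings transfer RNA to the ribosome, had no row in these tables.

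Single progenitor cells of mouse bone marrow were profiled by CEL-Seq2, which marks each captured transcript near its 3′ end with a random tag and counts the distinct tags in each well. The 4 groups had 2 libraries each: Mof -/+ plate2, wild type plate2, Mof -/+ HSC and wild type HSC. Mof, now Kat8, encodes a histone acetyltransferase, and Mof -/+ animals carry 1 functional copy. The design text lists haematopoietic stem cells (HSC), sorted by surface markers, and 7 kinds of erythroid, granulocyte-monocyte and megakaryocyte progenitors, and no label gives the sort gate of a plate2 well. The sources used here give no strain, sex or age of the animals. Whether the libraries of a group stem from different animals is not labelled either, so the p-values reflect the variation between libraries, and that variation may be technical.

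Initiation factors bring the small ribosomal subunit, the initiator transfer RNA and the messenger RNA together, and elongation factors then carry the ribosome along the message. The eIF4 proteins bind the cap and unwind the leader, eIF3 joins the small subunit to the message, and eIF2 delivers the initiator transfer RNA until a kinase phosphorylates it. Blood stem cells are known for a low rate of protein synthesis compared with the progenitors they give rise to.

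Many messages for translation factors begin with a C followed by a run of pyrimidines, the 5′ terminal oligopyrimidine (TOP) motif, through which the growth-regulating kinase complex mTORC1 controls their translation. The starts of 6 genes are shown because these genes form the pairs that moved apart in the comparisons that follow. Each line gives 12 bases before and 18 bases from the RefSeq start in GRCm38.p6, in the direction of transcription, with runs of at least 6 C or T letters in capitals.
Eef1a1, chr9:78481707-78481736, minus strand: ggctccgCCCTCTTCCCgagggtgggggag
Eef2, chr10:81176619-81176648, plus strand: aaaaggccgggcgttgacgtcagcggtctc
Eif4a1, chr11:69672406-69672435, minus strand: aagtaacgtcacgtcgagttgcagagcgcc
Eif4a2, chr16:23107456-23107485, plus strand: cggaaaccccgtaggagcagggcggccgag
Eif2s3x, chrX:94212634-94212663, minus strand: ccgagcaTTTTCCTTTTCTCTCCgagcaag
Eif2s3y, chrY:1010583-1010612, plus strand: gaggccacagccaCTTCCTTCTTTCgtgag
The Eef1a1 run of 10 pyrimidines spans the annotated start, and Eif2s3x and Eif2s3y had runs of 16 and 12 letters. Such a run stood in the windows of 17 of 64 translation factor starts (26.6%), against 9437 of 32851 RefSeq starts (28.7%). The search covered the transcribed strand alone, and 49 of the 62 genes matched the RefSeq table. A missing run says only that these letters are not in the window.

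The tables held 1536 barcodes. Of these, 436 held at least 1000 transcripts over named genes and were kept as cells, namely 94 Mof -/+ plate2, 110 wild type plate2, 136 Mof -/+ HSC and 96 wild type HSC cells. Each library lists the same 192 barcodes, and 19 kept cells lay outside the 96 barcodes that hold most of their library. Kept libraries held 99312 to 734550 transcripts, with library medians of 8082 to 12531 transcripts per cell in plate2 and 1567 to 2979 in HSC libraries. The 14 stem cell markers summed to 864 to 1501 CPM (a share of all kept transcripts, scaled per library, with no scaling for gene length since each transcript is counted once) in plate2 and 4060 to 5959 CPM in HSC libraries. The 17 erythroid markers summed to 4241 to 6253 CPM in plate2 and 1892 to 17473 CPM in HSC libraries, the highest being wild type HSC library 1. The 10 mature neutrophil markers summed to 17.7 to 2619 CPM in plate2 and 0 to 5289 CPM in HSC libraries, again highest in wild type HSC library 1. Kept cells with at least 10 mature neutrophil transcripts numbered 1 and 0 in Mof -/+ plate2, 3 and 3 in wild type plate2, 1 and 2 in Mof -/+ HSC and 3 and 0 in wild type HSC libraries. The source of the erythroid and neutrophil transcripts in the HSC libraries was not tested. Kat8 itself had 9 and 12 transcripts in Mof -/+ plate2, 10 and 4 in wild type plate2, 1 and 2 in Mof -/+ HSC and 1 and 2 in wild type HSC libraries, too few to test or to check the genotype labels.

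Translation factors made up 1.71 to 2.19% of transcripts in plate2 libraries and 1.55 to 1.78% in HSC libraries. Eef1a1, which carries aminoacyl-transfer RNA to the ribosome, made up 26.1% of all translation factor transcripts, and Eef2, the translocase that moves the ribosome along, 10.1%. The summed level was 21353 and 21944 CPM in Mof -/+ plate2, 19034 and 17052 CPM in wild type plate2, 17813 and 17312 CPM in Mof -/+ HSC and 16999 and 15539 CPM in wild type HSC libraries. Plate2 libraries ranged from 17052 to 21944 CPM and HSC libraries from 15539 to 17813 CPM, so the sets overlapped. Without Eef1a1 and Eef2 the sums ran from 10961 to 14070 CPM in plate2 and from 10255 to 12718 CPM in HSC libraries, which also overlap. In such sums, fewer cells of a type and less RNA per cell cannot be told apart.

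The comparison of plate2 with HSC libraries asks how translation factors differ between mixed progenitors and sorted stem cells. Over both genotypes, 20 of the 58 tested factors rose and 4 fell in plate2 (edgeR, adjusted p under 0.05 over 6690 genes), where 17.6% of all tested genes rose and 16.6% fell, 34.2% together. Of the 20, Eif2s3x, Eef1e1, Eif3j1 and Eif4enif1 passed the filter on low counts through plate2, where they were high, and so had to differ. Among the 51 factors that passed the filter in both sets, 16 rose and 4 fell. The calls were 13 higher and 1 lower of 59 tested with cells of at least 2000 transcripts, and 8 higher and 2 lower of 22 tested with each cell thinned to 1000 transcripts. The shares of all tested genes given above belong to the main fit. They are no background for these counts or for those of the 51 factors. No share over all genes stands beside those counts, so an excess of rises cannot be read from them. The median log2 fold change was 0.38 for the 58 factors and 0.04 for all tested genes. The initiation helicase Eif4a1, the eIF3 subunit Eif3k and Eef1a1 were among the largest rises, and Eef2 fell together with 3 enzymes that act on translation factors. The plate set coincides with depth per cell and with anything else that differed in how the sets were made or counted, and these cannot be told apart. Some genes that every cell uses were near 0 in HSC tables: Rpl27, a ribosomal protein gene, had 81 and 72 transcripts in Mof -/+ plate2, 60 and 16 in wild type plate2 and 0 in all 4 HSC libraries. Sdhd, a subunit of a respiratory enzyme, had 99 and 99 transcripts in Mof -/+ plate2, 79 and 32 in wild type plate2, 1 and 1 in Mof -/+ HSC and 0 in both wild type HSC libraries. Both genes were chosen after their values were seen, and whether the tables of the sets were counted in the same way was not tested.

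**Figure D1:**
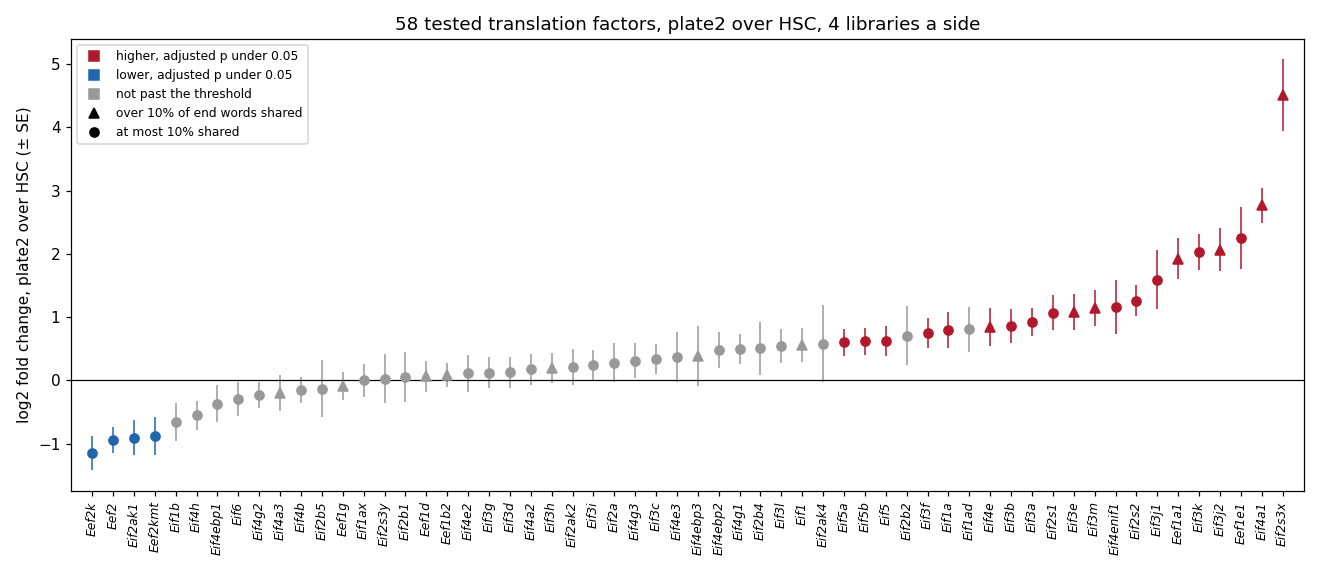
Log2 fold change of each of the 58 tested translation factors (y axis, plate2 over HSC, 4 libraries a side, points with SE), ordered by size. Red marks the 20 factors that rose and blue the 4 that fell; triangles mark genes of which over 10% of the 3′ end is shared with other annotated genes.

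Among the elongation factors, 3 of 7 tested rose (42.9%) and 1 fell (14.3%), where 17.6% of all tested genes rose and 16.6% fell. Eef1a1 had 6124 and 6174 CPM in Mof -/+ plate2 and 5704 and 4896 CPM in wild type plate2, against 1993 and 4264 CPM in Mof -/+ HSC and 1451 and 476 CPM in wild type HSC libraries. The sets did not overlap, and the HSC libraries differed among themselves far more than the plate2 libraries did. Eef1a1 rose by 1.92 on the log2 scale (SE 0.32, edgeR adjusted p = 0.000127). Eef2 went the other way, with 1805 and 1701 CPM in Mof -/+ plate2 and 1576 and 1195 CPM in wild type plate2, against 3102 and 2793 CPM in Mof -/+ HSC and 4201 and 4198 CPM in wild type HSC libraries. Every plate2 library lay below every HSC library, and Eef2 fell by 0.94 on the log2 scale (SE 0.21, edgeR adjusted p = 0.00135). Both factors act in each round of elongation, and Eef2 was above Eef1a1 in 3 of the 4 HSC libraries and below it in all 4 plate2 libraries.

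The exchange factor subunits Eef1b2, Eef1g and Eef1d, which recharge eEF1A with GTP, did not pass the test. Eef1b2 averaged 1239 ± 135 CPM in plate2 and 1367 ± 201 CPM in HSC libraries (SD, n = 4 each). Eef1g averaged 1151 ± 168 CPM in plate2 and 1449 ± 367 CPM in HSC libraries. Eif5a, which relieves stalled ribosomes and carries the modified residue hypusine, rose by 0.60 on the log2 scale (SE 0.22, edgeR adjusted p = 0.0361). Its sets overlapped, with 1215 ± 156 CPM in plate2 and 937 ± 296 CPM in HSC libraries (SD, n = 4 each). The third gene called higher was Eef1e1, a scaffold protein of the transfer RNA synthetase complex. It had 53.4 ± 12.1 CPM in plate2 and 14.5 ± 10.7 CPM in HSC libraries (SD, n = 4 each), where 8 transcripts were counted in all, and it passed the filter through plate2 alone.

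**Figure D2:**
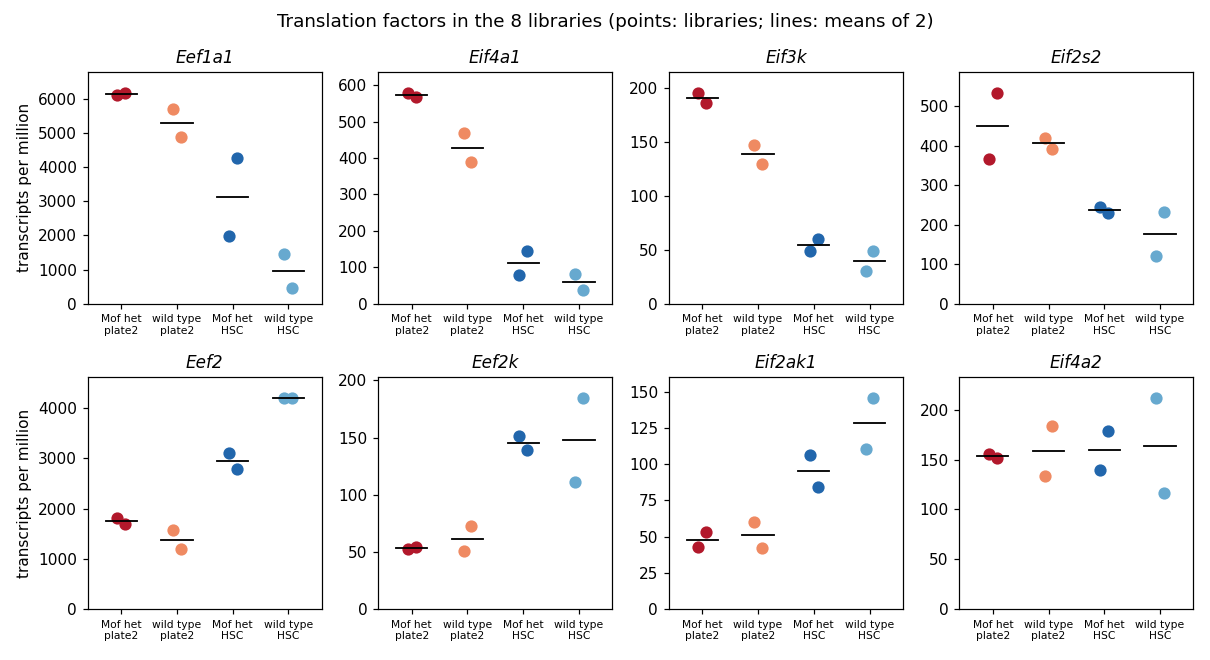
Level of 8 translation factors in CPM (y axes from 0) in each library, by group; points are libraries and lines are means of 2. Eef1a1, Eif4a1, Eif3k and Eif2s2 were higher in every plate2 library than in any HSC library, Eef2, Eef2k and Eif2ak1 were lower in every one, and Eif4a2 overlapped.

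Of the eIF4 cap-binding and helicase genes, 2 of 11 tested rose and none fell. The share that rose, 18.2%, was near the 17.6% of all tested genes. Eif4a1 encodes the main RNA helicase of cap-dependent initiation. It had 578 and 567 CPM in Mof -/+ plate2 and 468 and 389 CPM in wild type plate2, against 77.8 and 144 CPM in Mof -/+ HSC and 80.6 and 38.8 CPM in wild type HSC libraries. No plate2 value came near an HSC value, and the rise was 2.77 on the log2 scale (SE 0.28, edgeR adjusted p = 2.73e-07). Its close relative Eif4a2 averaged 156 ± 20.8 CPM in plate2 and 162 ± 42.2 CPM in HSC libraries (SD, n = 4 each) and did not pass the test (log2 fold change 0.18, SE 0.25, edgeR adjusted p = 0.612). Fold changes use the TMM scaling of the fit and CPM do not, so their signs can differ, as here. Eif4a2 was higher than Eif4a1 in all 4 HSC libraries, whereas Eif4a1 was higher than Eif4a2 in all 4 plate2 libraries. Eif4e, which binds the cap, rose by 0.85 (SE 0.30, edgeR adjusted p = 0.0324) with sets that overlapped. The scaffold-like Eif4g2 was the most abundant gene of the group, with 441 ± 48.0 CPM in plate2 and 607 ± 35.6 CPM in HSC libraries, and its log2 fold change of -0.23 did not pass (edgeR adjusted p = 0.399).

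In the eIF3 complex, 8 of 14 tested subunits rose (57.1%) and none fell, where 17.6% of all tested genes rose and 16.6% fell. All 14 log2 fold changes were positive, with a median of 0.81, against 45 of 58 for the factors and 51.9% for all tested genes. These signs rest on TMM scaling, with factors of 0.8845 to 0.9729 in plate2 and 1.028 to 1.12 in HSC libraries. Mean CPM was lower in plate2 than in HSC libraries for Eif3d (138.5 and 148.7), Eif3g (180.9 and 194.2) and Eif3h (230.3 and 236.9). Eif3k, a subunit at the edge of the complex, had 195 and 186 CPM in Mof -/+ plate2 and 147 and 129.5 CPM in wild type plate2, against 49.1 and 59.7 CPM in Mof -/+ HSC and 30.2 and 48.5 CPM in wild type HSC libraries. The groups of libraries did not overlap, and Eif3k rose by 2.02 (SE 0.29, edgeR adjusted p = 1.77e-05). Eif3a, the large scaffold subunit and the most abundant of the complex, averaged 849 ± 78.9 CPM in plate2 and 525 ± 129 CPM in HSC libraries (SD, n = 4 each) and rose by 0.92 (SE 0.22, edgeR adjusted p = 0.00252). Eif3b, the subunit that holds the scaffold's partners, rose by 0.86 with sets that overlapped, and Eif3e, Eif3f and Eif3m rose by 1.08, 0.75 and 1.14. Limited to the stem cell-like cells of plate2, a comparison described further on, 2 of 12 tested subunits rose, 7 of 12 were positive and the median was 0.31. Of the subunits that rose, Eif3k passed the filter of that fit through plate2 alone. Over all genes tested in that fit, 12.4% rose and 48.9% were positive.

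The near-identical copies Eif3j1 and Eif3j2, which encode a loosely bound subunit, were called higher by 1.59 and 2.07. Their separate values are uncertain because 86.8% of the end of Eif3j2 also occurs in Eif3j1, and Eif3j1 passed the filter through plate2 alone. Eif3c, Eif3d, Eif3g, Eif3h, Eif3i and Eif3l did not pass.

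For eIF2, the carrier of the initiator transfer RNA, the genes of the alpha subunit (Eif2s1) and the beta subunit (Eif2s2) rose. Of the 8 tested genes of eIF2 and its exchange factor eIF2B, the only other call over both genotypes was the X-linked gamma subunit gene Eif2s3x, which passed the filter through plate2 alone. Eif2s2 had 367 and 533 CPM in Mof -/+ plate2 and 420.1 and 391 CPM in wild type plate2, against 246 and 229 CPM in Mof -/+ HSC and 121 and 233 CPM in wild type HSC libraries. Each plate2 value exceeded each HSC value, and the rise was 1.26 on the log2 scale (SE 0.25, edgeR adjusted p = 0.000504). Eif2s1 rose to 140.1 ± 13.9 CPM in plate2, against 76.5 ± 19.7 CPM in HSC libraries (SD, n = 4 each; edgeR adjusted p = 0.00404).

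The gamma subunit has copies on the X and Y chromosomes. Eif2s3x had 99.9 and 103 CPM in Mof -/+ plate2 and 83.1 and 89.5 CPM in wild type plate2, against 0 and 14.9 CPM in Mof -/+ HSC and 0 in both wild type HSC libraries. Eif2s3x stood near 0 in HSC tables as Rpl27 and Sdhd did. In wild type cells 99 transcripts in plate2 stood against 0 in HSC libraries, at least 5.76-fold higher with 3 counts over the group as the floor. In Mof -/+ cells 133 stood against 3, a ratio of CPM of 15.1 with a 95% interval of 5.05 to 74.1 that covers counting error only. Eif2s3y was detected in all 8 libraries, at 38.0 ± 7.61 CPM in plate2 and 42.0 ± 22.0 CPM in HSC libraries (SD, n = 4 each). It did not pass the test (edgeR adjusted p = 0.964).

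Of 9 tested start codon factors 3 rose (33.3%) and none fell, with a median of 0.56, where 17.6% of all tested genes rose and 16.6% fell. Eif5b, which joins the ribosomal subunits, Eif5, which triggers GTP hydrolysis on eIF2, and Eif1a rose by 0.62, 0.63 and 0.80 on the log2 scale. The sets overlapped for Eif5b and Eif5 but not for Eif1a. Eif1, which guards start codon choice, had 320.5 to 363 CPM in plate2 and 97.0 to 342 CPM in HSC libraries and did not pass (edgeR adjusted p = 0.106). Among proteins that bind eIF4E, Eif4enif1, which represses and stores messages, had 41.5 ± 8.64 CPM in plate2 and 21.6 ± 7.21 CPM in HSC libraries (SD, n = 4 each). It was called higher, with 13 transcripts in the HSC libraries and through a filter it passed in plate2 alone. The mTORC1-controlled repressors Eif4ebp1, Eif4ebp2 and Eif4ebp3 did not pass over both genotypes, with log2 fold changes of -0.37, 0.48 and 0.39.

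Of 5 tested enzymes that modify translation factors, 3 fell (60.0%) and none rose, with a median log2 fold change of -0.88. Over all tested genes 16.6% fell and 17.6% rose. Eef2k, the kinase that inactivates eEF2, had 52.3 and 54.5 CPM in Mof -/+ plate2 and 50.4 and 73.0 CPM in wild type plate2, against 151 and 139 CPM in Mof -/+ HSC and 111 and 184 CPM in wild type HSC libraries. It was lower in each plate2 library than in any HSC library and fell by 1.15 on the log2 scale (SE 0.27, edgeR adjusted p = 0.00227). Eif2ak1, the haem-sensing eIF2 kinase, fell by 0.90 (SE 0.28, edgeR adjusted p = 0.0155), with 49.6 ± 8.50 CPM in plate2 and 112 ± 25.3 CPM in HSC libraries (SD, n = 4 each). Eef2kmt, which methylates eEF2, fell by 0.88 (SE 0.30, edgeR adjusted p = 0.0259). With plate2 limited to its stem cell-like cells, Eef2k and Eef2kmt no longer passed, with log2 fold changes of -0.23 and -0.38 (edgeR adjusted p = 0.708 and 0.637). The double-stranded RNA sensor Eif2ak2 averaged 82.7 ± 10.2 CPM in plate2 and 81.7 ± 20.1 CPM in HSC libraries and did not pass. The amino acid sensor Eif2ak4 did not pass either, and Eif2ak3, the kinase of the endoplasmic reticulum, had 25 transcripts in all and was not tested.

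Each genotype on its own gave fewer calls, from libraries that the other genotype does not share. The filter, the scaling and the estimate of spread were shared over all 8 libraries, so the 2 comparisons are not fully separate. In Mof -/+ libraries 10 factors rose and 2 fell in plate2, where 11.9% of tested genes rose and 10.3% fell. In wild type libraries 10 rose and 4 fell, where 9.64% of genes rose and 8.13% fell. Eif4a1, Eif3k, Eif3j2, Eif2s2, Eef1a1 and Eif3a passed in both, as did Eif2s3x, whose level near 0 in HSC tables is described above. The eIF2B subunit gene Eif2b2 passed in wild type libraries (edgeR adjusted p = 0.0408), where HSC libraries held 1 transcript of it, and not in Mof -/+ libraries. Eef1a1 rose by 1.17 in Mof -/+ (SE 0.35, edgeR adjusted p = 0.0217) and by 2.73 in wild type libraries (SE 0.38, edgeR adjusted p = 5.53e-05). Eef2 had a log2 fold change of -0.55 in Mof -/+ libraries, which did not pass (edgeR adjusted p = 0.0995), and fell by 1.34 in wild type libraries (edgeR adjusted p = 0.000796). Eif4h, Eif1b and Eif4ebp1 fell in wild type libraries, Eif1b by 1.31 and Eif4h by 0.96, and did not pass in Mof -/+ libraries. No factor passed the test of the difference between the genotypes. The wild type count was 6 without wild type HSC library 2, and the Mof -/+ count was 4 without Mof -/+ plate2 library 2 and 6 without Mof -/+ plate2 library 1.

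Other genes of the pathway were taken from lists of known function. Over all tested genes, 17.6% rose and 16.6% fell in plate2 over both genotypes. Of 28 tested genes for termination, ribosome recycling and poly(A) binding, 10 rose and none fell over both genotypes, with a median log2 fold change of 0.53. Pabpc1, the main poly(A)-binding protein, had 2979 to 3994 CPM in plate2 and 1281 to 2576 CPM in HSC libraries, and rose by 1.04 (SE 0.19, edgeR adjusted p = 0.000326). Pdcd4, an inhibitor of the eIF4A helicase, rose by 1.83 (SE 0.32, edgeR adjusted p = 0.000192), alongside its target Eif4a1. Of 20 tested aminoacyl-transfer RNA synthetase genes, Eprs, Dars and Iars rose and Farsb fell. Of 15 tested mTORC1 pathway genes, Lamtor2 rose by 1.64 and Mknk2, a kinase of eIF4E, fell by 0.86. These calls, 6.67% in each direction, are fewer than over all genes. Of 8 tested genes of the integrated stress response, which follows eIF2 phosphorylation, Ppp1r15b, Asns and Phgdh rose and 2 fell, among them the amino acid transporter subunit Slc3a2 (log2 fold change -0.92). Ppp1r15b, a subunit of the phosphatase that restores eIF2, rose by 2.82 (SE 0.43, edgeR adjusted p = 4.37e-05). Of 4 tested mitochondrial translation factors, Mrrf and Mtif3 fell. Among the 9 translation factors known to carry the TOP motif, Eef1a1, Eif3e and Eif3f rose and Eef2 fell, with a median of 0.09.

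Many translation factor genes have processed pseudogenes that can share their 3′ ends. The last 300 bases of each gene's GENCODE transcripts were split into words of 35 bases, and the share of words that occur in another annotated gene, as a median over the gene's transcripts, was above 0 for 20 of the 62 factors. Shared words made up 64.9% for Eef1a1, with 22 pseudogenes among the genes that hold them, 50.8% for Eif4a1, 72.9% for Eif2s3x, 9.40% for Eef2 and 0% for Eif3k, Eef1e1, Eif3a and Eef2k. Eif3e and Eif4e had 29.3% and 43.9%. Over all tested genes with over 50% shared words, 45.5% rose in plate2 and 7.36% fell, with a median log2 fold change of 0.66. Among genes with no shared word, 14.4% rose and 17.6% fell, with a median of -0.015. Among the factors with no shared word, 11 of 38 rose and 3 fell, with a median of 0.36. With genes of over 10% shared words left out of the fit, 13 of 44 factors rose and 4 fell. Of all 5832 genes tested in that fit, 915 rose and 976 fell. None of the 8 eIF4 genes tested there rose, Eif4a1 and Eif4e being among those left out. Annotated processed pseudogenes as a class summed to 11448 to 21973 CPM in plate2 and 6179 to 11461 CPM in HSC libraries, so the sets overlapped slightly. Those of the translation factors were not summed apart. The sources used here do not say how reads with several matches were counted, and the part of shared ends in the levels of Eef1a1, Eif4a1 and Eif2s3x was not tested. Nor is it given whether the counting used strand, so reads of overlapping genes cannot be told apart.

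Plate2 cells were also described by class. Clustering of the 204 plate2 cells on all genes but the translation factors gave 7 clusters, of which clusters 0 and 6 were erythroid progenitor-like (23 and 25 cells), cluster 1 neutrophil progenitor-like (30 cells) and cluster 5 haematopoietic stem cell-like (36 cells), and 3 stayed unnamed. Median transcripts per cell were 1160 in cluster 0, 29074 in cluster 6 and 8779 in cluster 5. Class levels are summed over cells, so cells with many transcripts, as in cluster 6, weigh most in the erythroid-like values. Cluster 6 held 8 and 8 cells of the Mof -/+ and 4 and 5 cells of the wild type plate2 libraries. Translation factors summed to 24492 ± 1206 CPM in erythroid-like cells and 16957 ± 1311 CPM in stem cell-like cells (SD, n = 4 libraries each), with no overlap between the classes. They made up 2.23% and 2.48% of transcripts in the erythroid-like clusters and 1.73% in the stem cell-like cluster.

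Of 52 factors with at least 50 transcripts in these classes, 22 were higher in erythroid-like cells with no overlap of the libraries and 1 was lower, where 25.3% of 3372 genes were higher and 10.1% lower. These are descriptions without a test, since classes were made from the same cells. Eif5a stood at 1650.4 ± 213 CPM in erythroid-like and 703 ± 175 CPM in stem cell-like cells, and Eif3b at 210 ± 19.5 CPM in erythroid-like and 58.7 ± 22.3 CPM in stem cell-like cells. The paralogous helicases differed in opposite directions without overlap. Eif4a1 stood at 666 ± 64.1 CPM in erythroid-like and 377 ± 87.3 CPM in stem cell-like cells. Eif4a2, the 1 lower gene, stood at 119 ± 38.8 CPM in erythroid-like and 283 ± 30.0 CPM in stem cell-like cells. Eef1a1 and Eef2 overlapped between the classes, Eef1a1 with 6124 ± 414 CPM in erythroid-like and 5637 ± 186 CPM in stem cell-like cells.

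**Figure D3:**
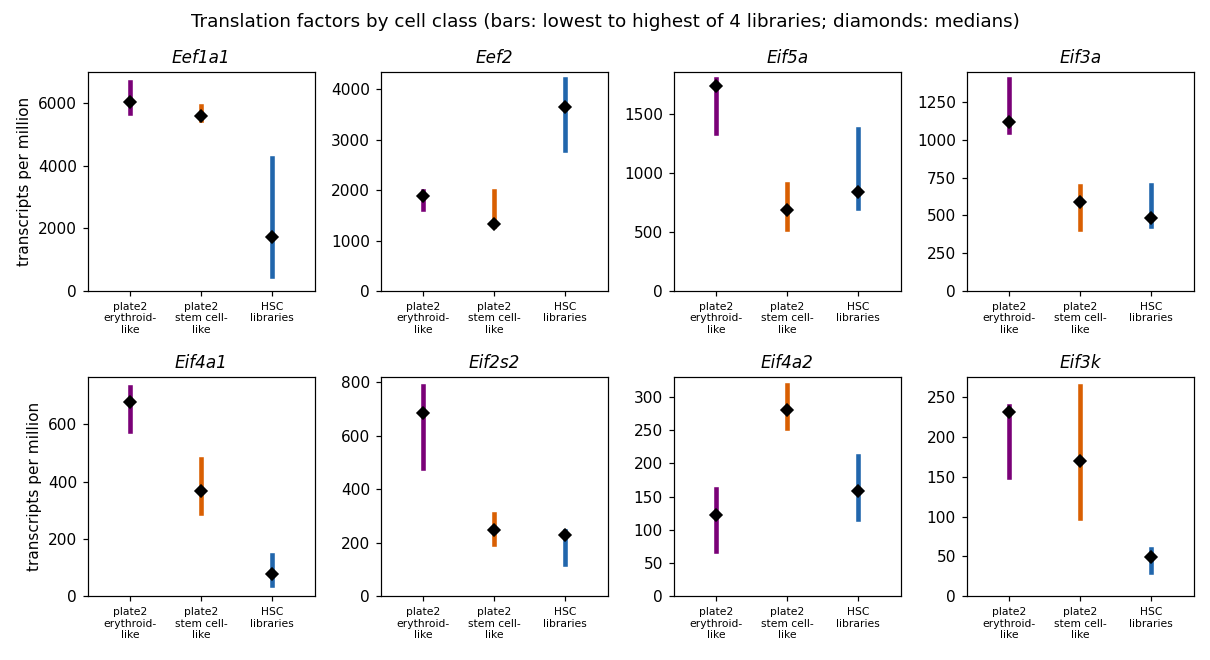
Level of 8 translation factors in CPM (y axes from 0) in plate2 erythroid-like cells, plate2 stem cell-like cells and whole HSC libraries; bars run from the lowest to the highest of 4 libraries and diamonds are medians. Eif5a, Eif3a and Eif2s2 of plate2 stem cell-like cells lie near the HSC libraries, while Eef1a1, Eif4a1, Eef2 and Eif3k do not.

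Limiting plate2 to its stem cell-like cells compares cells of like markers between the sets, a choice made after seeing the data, with 5 to 11 cells a library. It left 41 factors tested, of which 5 rose and 3 fell (edgeR, adjusted p under 0.05), where 12.4% of 2469 genes rose and 12.2% fell. Eef1a1 still rose by 1.88 (SE 0.32), with 5487 and 5528 CPM in Mof -/+ and 5646 and 5896 CPM in wild type plate2 stem cell-like cells. Eif4a1 rose by 2.34 (SE 0.34), Eif3k by 2.05 and Eif3e by 1.22, and Eif4a2 now rose by 1.03 (SE 0.30, edgeR adjusted p = 0.0143). Plate2 libraries are smaller in this fit, so its filter on low counts asked for higher CPM. Eif4a1 and Eif3k passed that filter through plate2 alone, where they were high, and so had to differ. Eef2 fell by 1.05 (SE 0.22, edgeR adjusted p = 0.000744), and the helicase cofactor Eif4h fell by 0.87. Eif2ak1 was called lower by 2.18, with 6 transcripts in all plate2 stem cell-like cells. It passed the filter through HSC libraries alone, where it was high, and so had to differ. Eif2s1, Eif2s2 and Eif3a no longer passed, with log2 fold changes of 0.11, 0.51 and 0.34. Eif5a, Eif3b and Eif5b turned to -0.18, -0.38 and -0.07, also short of the threshold.

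Between single cells the share of transcripts in translation factors varied more in plate2 than in HSC libraries. Its SD over cells was 0.783 and 0.628% in Mof -/+ plate2, 0.818 and 0.777% in wild type plate2, 0.388 and 0.464% in Mof -/+ HSC and 0.440 and 0.408% in wild type HSC libraries. Library medians were 2.05 and 2.06% in Mof -/+ plate2, 1.93 and 1.74% in wild type plate2, 1.63 and 1.74% in Mof -/+ HSC and 1.59 and 1.30% in wild type HSC libraries. With each cell thinned to 1000 transcripts the SD was 0.721 to 0.937% in plate2 and 0.486 to 0.540% in HSC libraries, against 0.370 to 0.445% from counting alone. The lowest share of any plate2 cluster was that of cluster 4, an unnamed cluster of 29 cells with 0.786% of transcripts in translation factors and 52.6% in predicted gene models, which ranged from 5.79 to 14.6% in the other clusters. Cluster 4 held 7 and 2 cells of the Mof -/+ and 12 and 8 cells of the wild type plate2 libraries.

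**Figure D4:**
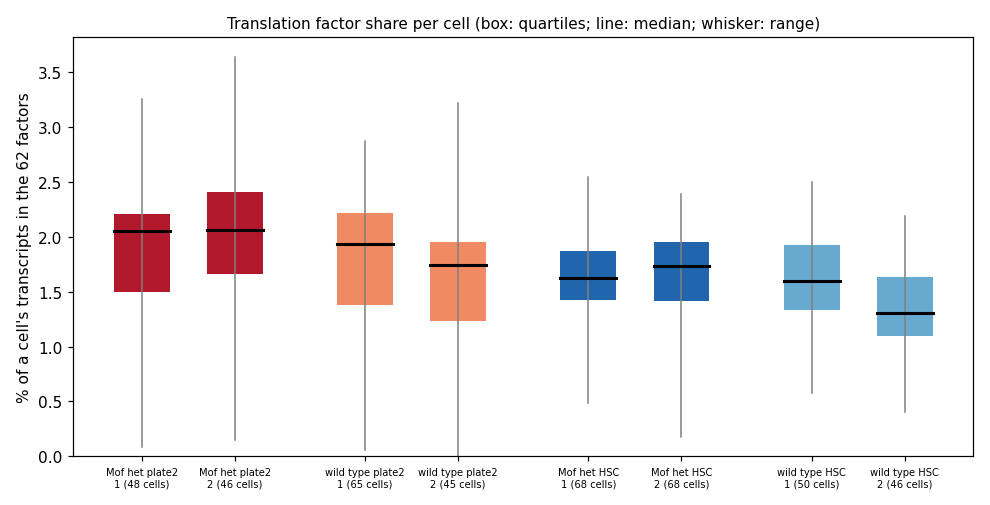
Share of each kept cell's transcripts in the 62 translation factors, in percent (y axis), for each library; boxes are quartiles, black lines medians and grey lines the full range. Plate2 medians run from 1.74 to 2.06% and HSC medians from 1.30 to 1.74%, and the lowest plate2 cells hold 0 to 0.153%.

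The comparison of genotypes asks what 1 lost copy of Mof changes. No translation factor passed in either set, over both sets or in the difference between the sets (edgeR, adjusted p under 0.05), where 0.553% of 6690 genes passed in plate2 (0.0299% higher and 0.523% lower), 0.0149% in HSC, 0.135% over both sets (0.0149% higher and 0.12% lower) and 0% in the difference. An unadjusted p under 0.05 was found for 3 of the 58 factors in plate2, 8 in HSC, 1 over both sets and 7 in the difference. Over all 6690 tested genes the counts were 338 in plate2, 722 in HSC, 399 over both sets and 607 in the difference. DESeq2 called Eef1a1 in HSC (adjusted p = 0.017) and 0 factors in plate2, over both sets and in the difference. The genes of smallest p are described next and did not pass.

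In HSC libraries Eef1a1 had the smallest p. Its 1993 and 4264 CPM in Mof -/+ HSC stood against 1451 and 476 CPM in wild type HSC libraries, without overlap, for a log2 fold change of 1.65 (SE 0.37, edgeR adjusted p = 0.106). It passed without wild type HSC library 1 (2.71, edgeR adjusted p = 0.00107) and without Mof -/+ HSC library 1 (2.15, edgeR adjusted p = 0.00414), but not without the other library of either genotype (1.12 and 1.06). Each of these fits has 1 library in an HSC group, which is assumed to vary like the other groups. In plate2 Eef1a1 had a log2 fold change of 0.08 (SE 0.35, edgeR adjusted p = 0.997), and the difference between the sets was -1.57 (SE 0.51, edgeR adjusted p = 0.372). Eif4ebp1, the main mTORC1-controlled repressor of eIF4E, had 98.3 and 69.6 CPM in Mof -/+ HSC against 181 and 194 CPM in wild type HSC libraries (log2 fold change -1.22, SE 0.38, edgeR adjusted p = 0.285). In wild type HSC library 2, 1 cell held 45.0% of its 20 transcripts. The other factors with an unadjusted p under 0.05 were Eif3e (1.38), Eif3m (1.19), Eif4h (-0.84), Eef2 (-0.58), Eif2b2 and Eif2ak4. Eif2b2, an eIF2B subunit, had 22 transcripts in Mof -/+ and 1 in wild type HSC libraries, a ratio of CPM with a 95% interval of 1.62 to 413 from counting error only. Eif2ak4 had 15 transcripts in Mof -/+ HSC and 0 in wild type HSC libraries, at least 2.27-fold higher with the floor of 3 counts over the group.

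In plate2 the genes of smallest p were 3 eIF3 subunits. Eif3i had 260.3 and 233 CPM in Mof -/+ plate2 against 161 and 118 CPM in wild type plate2 libraries (log2 fold change 0.67, SE 0.27, edgeR adjusted p = 0.818). Eif3d had 173 and 179 CPM in Mof -/+ plate2 against 113 and 89.5 CPM in wild type plate2 libraries (0.64, edgeR adjusted p = 0.898). Eif3g had 209 and 243 CPM in Mof -/+ plate2 against 146 and 125 CPM in wild type plate2 libraries (0.60, edgeR adjusted p = 0.968), and its log2 fold change turned to -0.42 with each cell thinned to 1000 transcripts. None of these groups overlapped, which adds no support, since the genes were picked for their small p. Eif3f (0.46) and the repressor Eif4ebp2 (-0.59) followed.

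All 14 tested eIF3 subunits had a positive log2 fold change in plate2, with a median of 0.19, where 49.5% of all tested genes did, with a median near 0 (-0.0046). Eif3g, at -0.42 in thinned cells, did not keep that sign. Without cluster 4, which is rarer in the Mof -/+ libraries, 13 of 14 were positive with a median of 0.15. The summed translation factor level without cluster 4 was 22217 and 22234 CPM in Mof -/+ plate2 and 21208 and 19223 CPM in wild type plate2 libraries. The genotypes did not overlap in either sum, and the gap between them was smaller without these cells. Cluster 6, with the highest share of translation factors of any cluster (2.48%), differed in number as well. It held 8 of 48 and 8 of 46 cells of the Mof -/+ and 4 of 65 and 5 of 45 cells of the wild type plate2 libraries. The part of this cell mix in the genotype values was not tested.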

How the data were processed

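The deposited values are expected counts, per the labels' CEL-Seq2 protocol and the values themselves: the authors deposited whole numbers of molecular identifiers, corrected for identifiers drawn more than once from a pool of 4096, to within 4.2e-11. Per the submitters' processing notes, BWA 0.6.2-r126 and the mm10 build were used. The sources used here name no annotation, read filter or counting tool. Rows without a gene name made up 0%, and 70 spike-in rows were left out.

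Barcodes with at least 1000 transcripts were kept, summed per library and rounded to whole numbers. CPM are counts over all kept transcripts of the library, scaled to a common total. Tests used the quasi-likelihood method of edgeR 4.0.16 (R 4.3.3) with filterByExpr, TMM factors and Benjamini-Hochberg adjustment over 6690 genes, at a threshold of 0.05. Plate2 against HSC over both genotypes, and genotype over both sets, used plate set and genotype as terms; other comparisons used a 1-way layout of the 4 groups. SE is the log2 fold change over the square root of F. The fit was tested on simulated data. Plate2 cells were clustered with scanpy 1.11.5 without the translation factors, and no doublet caller was run because cells were sorted into wells. Coordinates and transcript ends came from GENCODE vM21 (GRCm38), and start windows from RefSeq (GRCm38.p6).

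The members, lists and markers were chosen with earlier results of these data known. Genes were named if they passed a test, were the most abundant of their group, or had 1 of the 5 smallest p where fewer than 5 passed; the eIF2 and eEF2 kinases, the eIF4E-binding proteins and the paralogue pairs were always named. Named afterwards, with their values seen, were the remaining eIF3, eEF1 and start codon genes. Alternatives changed scaling, filters, cells, libraries and the test (DESeq2 1.42.0).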

Additional observations from a re-analysis of the deposited data

Results flagged for a closer look

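Barcodes below the limit for a kept cell held 4085 translation factor transcripts, against 60705 in kept cells, and no comparison used them.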

How the results depend on the processing

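The alternatives left Eif4a1, Eif3k, Eef1a1 and Eef2 on the same side of the threshold for plate2 over HSC in every fit that held them. In the stem cell-like fit Eif4a1 and Eif3k passed the filter through plate2 alone, so they had to differ there. The 24 factors called over both genotypes became 14 with cells of at least 2000 transcripts, 10 with each cell thinned to 1000 transcripts and 8 with plate2 limited to stem cell-like cells, and ranged from 16 to 22 with 1 library left out. The 14 of the wild type comparison became 7, 7 and 8 under the same settings and 9 without genes of shared ends, with 6 to 17 when 1 library was left out. The 12 of the Mof -/+ comparison became 4 when thinned and 2 in stem cell-like cells, with 4 to 14 when 1 library was left out. For genotype in HSC, 0 became 1 with no low-count filter, with 2000 transcripts and with DESeq2, and 0 to 1 with 1 library left out; with no filter it became 1 over both sets and 1 in the difference (0 to 1 with 1 library left out). The log2 ratio of summed levels, 0.23 for plate2 over HSC, became 0.15 with 2000 transcripts and 0.35 without predicted gene models, and 0.19 for Mof -/+ over wild type became 0.11 without those models. In stem cell-like cells Eif3b, Eif5b and Eif5a turned to -0.38, -0.0693 and -0.18, and Eif3g in plate2 for Mof -/+ over wild type turned to -0.42 when thinned. The cause was not tested, except that thinning left 22 and the stem cell-like choice 41 factors to test. The settings on stem cell-like cells, cluster 4 and shared ends were chosen after seeing the data.

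With the replicate number of the HSC titles as a block, no factor was called for genotype in HSC or over both sets (Eef1a1 1.68, edgeR adjusted p = 0.164). The deviations of same-numbered HSC libraries from their group means had a correlation of -0.09 over 6690 genes (2 pairs). With 2 libraries in a group these deviations are mirror images, so both pairs give the same value. Plate2 titles share no numbers. Whether the numbers pair the libraries therefore cannot be decided from this correlation.

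HSC libraries hold fewer transcripts per cell, so factors with few transcripts there, such as Eif2s3x, are known least precisely, and intervals and floors cover counting error only.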
